A study of Homo sapiens with 4 samples.

Results

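RhoGEFs and RhoGAPs are the activators and inactivators of small GTPases such as RhoA, Rac1 and Cdc42, and the genes described here are the protein-coding genes whose names begin with ARHGEF or ARHGAP. There were 62 such genes, 26 ARHGEF and 36 ARHGAP, among 19951 protein-coding and 58735 annotated genes in the count table, and 48 of them (22 ARHGEF and 26 ARHGAP) had enough counts to be tested. The rule that picks them uses name and gene biotype alone, although the family was chosen for description with earlier results of these data known. SW1990, an established human line of pancreatic ductal adenocarcinoma, had been grown in DMEM and kept for 24 h with 10 µM gomisin G, a lignan from Schisandra fruits (2 libraries), or with vehicle (2 libraries). The series title names the Hippo-YAP pathway, which responds to RhoA activity and actin tension. All libraries come from this 1 line, at 1 dose and 1 time. No label states that replicates were cultured separately, and the spread behind the p-values may therefore be technical.

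Each of these GTPases switches between a GDP-bound resting form and a GTP-bound form that binds effectors such as ROCK kinases, formins and PAK kinases. RhoGEFs, most of them through a paired DH and PH domain, swap GDP for GTP and turn the switch on. RhoGAPs speed up GTP hydrolysis and turn it off. RhoA drives stress fibres and contraction, Rac1 and Cdc42 drive lamellipodia and filopodia, and in epithelial tumour cells the local balance of GEFs and GAPs shapes junctions, migration and the cleavage furrow. High RhoA activity is known to favour nuclear YAP, and ARHGEF17, ARHGAP18 and ARHGAP29 have each been tied to YAP, as listed target genes or as regulators of tension.

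Total counts were 15034663 and 15245770 in the gomisin G libraries, against 14580848 and 14901526 in the vehicle libraries. Levels are given as CPM, counts scaled to library size with TMM factors, and 3 counts, the limit that a count of 0 allows, equal 0.207 and 0.189 CPM in the gomisin G libraries and 0.207 and 0.202 CPM in the vehicle libraries. Such limits cover counting error only. The chi-square per gene between the replicates was 37.2 for gomisin G and 6.98 for vehicle, so the gomisin G replicates were further apart, and no library was a repeat deposit of another. All 8 epithelial markers were detected, with a summed level of 9813 and 7393 CPM in the gomisin G libraries, against 11420 and 9620 CPM in the vehicle libraries. The most abundant markers set this sum, and it does not give the direction of the list. The log2 change was positive for 5 of the 8 and negative for 3, with a median of 0.47. By the test described below 1 of them rose and 0 fell. KRT7, a ductal keratin, was near 0, at 2.07 and 0.884 CPM with gomisin G and 0.966 and 0.875 CPM with vehicle. The 6 fibroblast markers summed to 8.57 and 11.99 CPM with gomisin G, against 4.62 and 4.91 CPM with vehicle, and 2 of them, COL1A2 and LUM, were at 0 throughout. The 6 leukocyte markers stayed at or below 0.483 CPM in sum, with PTPRC and CD3E at 0, and the 4 endothelial markers at or below 0.966 CPM, with KDR at 0.

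Promoter sequences are shown for 4 members, to set members lower and higher with gomisin G beside the letters bound by TEAD, the DNA-binding partner of YAP, and by AP-1, the pairs of JUN and FOS proteins. RefSeq promoters (build GRCh38.p14, 250 bases before to 50 after a start site) were matched by symbol for 48 of the 62 members, with 95 promoters in all. Capitals mark a TEAD match (GGAATG) or an AP-1 match (TGANTCA), searched on both strands. ARHGAP28 and ARHGAP18 have lower counts with gomisin G and no match, and ARHGAP27 and ARHGEF10L have higher counts and a match at 1 of their promoters. The 4 were picked as examples and do not show that matches go with higher counts. The ARHGAP28 stretch is chr18:6834235-6834534 on the plus strand, inside the span that the files' annotation gives the gene. The ARHGAP18 stretch is chr6:129710128-129710427 on the minus strand. The ARHGAP27 stretch, 1 of its 3 listed promoters, is chr17:45425584-45425883 on the minus strand. The ARHGEF10L stretch is chr1:17519947-17520246 on the plus strand, at a start upstream of the span in the files' annotation. It is 1 of 7 listed promoters of ARHGEF10L, and the other 6 hold neither motif.
ARHGAP28: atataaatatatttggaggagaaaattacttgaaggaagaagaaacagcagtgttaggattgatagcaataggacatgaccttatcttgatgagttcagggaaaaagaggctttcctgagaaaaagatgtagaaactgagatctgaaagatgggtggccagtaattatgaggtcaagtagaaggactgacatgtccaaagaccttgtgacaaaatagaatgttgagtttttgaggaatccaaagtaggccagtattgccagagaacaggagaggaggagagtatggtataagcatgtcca
ARHGAP18: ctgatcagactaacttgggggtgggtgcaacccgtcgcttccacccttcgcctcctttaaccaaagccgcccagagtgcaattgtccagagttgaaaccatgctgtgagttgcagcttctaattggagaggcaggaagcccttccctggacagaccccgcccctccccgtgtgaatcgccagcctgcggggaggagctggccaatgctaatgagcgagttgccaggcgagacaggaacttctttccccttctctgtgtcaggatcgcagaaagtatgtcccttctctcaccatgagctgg
ARHGAP27: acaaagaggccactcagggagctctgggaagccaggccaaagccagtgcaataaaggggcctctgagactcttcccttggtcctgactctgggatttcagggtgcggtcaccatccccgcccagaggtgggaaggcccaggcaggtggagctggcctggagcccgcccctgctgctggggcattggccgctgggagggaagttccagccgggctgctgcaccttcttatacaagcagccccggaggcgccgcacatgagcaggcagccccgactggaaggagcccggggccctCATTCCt
ARHGEF10L: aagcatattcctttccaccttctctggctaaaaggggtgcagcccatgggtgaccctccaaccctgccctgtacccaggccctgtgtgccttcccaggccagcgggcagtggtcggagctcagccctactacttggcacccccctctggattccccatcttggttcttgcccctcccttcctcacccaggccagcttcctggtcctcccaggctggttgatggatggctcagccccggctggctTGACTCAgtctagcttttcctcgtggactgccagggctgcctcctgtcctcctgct

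The ARHGAP27 stretch holds the TEAD letters on its opposite strand, beginning 43 bases after the start site, and the ARHGEF10L stretch holds the AP-1 letters beginning 6 bases before its start site (position -6). The ARHGAP28 and ARHGAP18 stretches hold neither. Across the members, 6 of 95 promoters (6.32%) held GGAATG, against 14% of all 35116 promoters. The AP-1 letters were in 1 of 95 (1.05%), against 7.71% of all promoters, and the CRE letters TGACGTCA in 0 of 95, against 1.85%. The members with the TEAD letters were ARHGAP21, ARHGAP22, ARHGAP24, ARHGAP27, ARHGAP45 and ARHGEF28. Among them the log2 change was negative for ARHGAP21 (-0.27) and ARHGAP45 (-0.25), and ARHGEF16 and ARHGEF1, with positive changes, had no match. These are letter matches in a short window, and they say nothing of binding.

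The most abundant members per length, in both groups, were ARHGAP35, ARHGEF16, ARHGAP11A, ARHGAP32, ARHGEF1 and ARHGAP1. CPM per kilobase of exon, averaged over the 4 libraries, was 31.1 for ARHGAP35, which encodes p190A, a RhoA GAP, and 19.8 for ARHGEF16, which encodes ephexin-4, a GEF for RhoG. It was 18.5 for ARHGAP11A, 16.8 for ARHGAP32, 16.7 for ARHGEF1 and 11.3 for ARHGAP1. These 6 members stood at 10 CPM per kilobase or more, 32 lay from 1 to 10, and 24 lay under 1, of which 5 had no count in any library. The 5 without a count were ARHGAP6, ARHGAP15, ARHGAP36, ARHGEF25 and the read-through gene ARHGAP19-SLIT1. The other 9 untested members had at most 10 counts in any library. They were ARHGAP9, ARHGAP11B, ARHGAP20, ARHGAP24, ARHGAP25, ARHGAP30, ARHGEF10, ARHGEF15 and ARHGEF33. The counts of ARHGEF10 cannot be read as its level, since 95.8% of the 50-base words of its longest transcript occur in other genes, mainly KBTBD11-OT1. The same limit holds for the tested gene ARHGEF18, where the share is 82.2%, mainly with the read-through gene AC008878.3. ARHGAP9, ARHGAP15, ARHGAP25 and ARHGAP30 are best known from blood cells. Of the 48 tested members, ARHGAP22, ARHGEF6 and ARHGEF38 passed the count filter only through the gomisin G libraries, and 0 passed only through the vehicle libraries, so a higher value of these 3 is partly set by the filter.

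**Figure D1:**
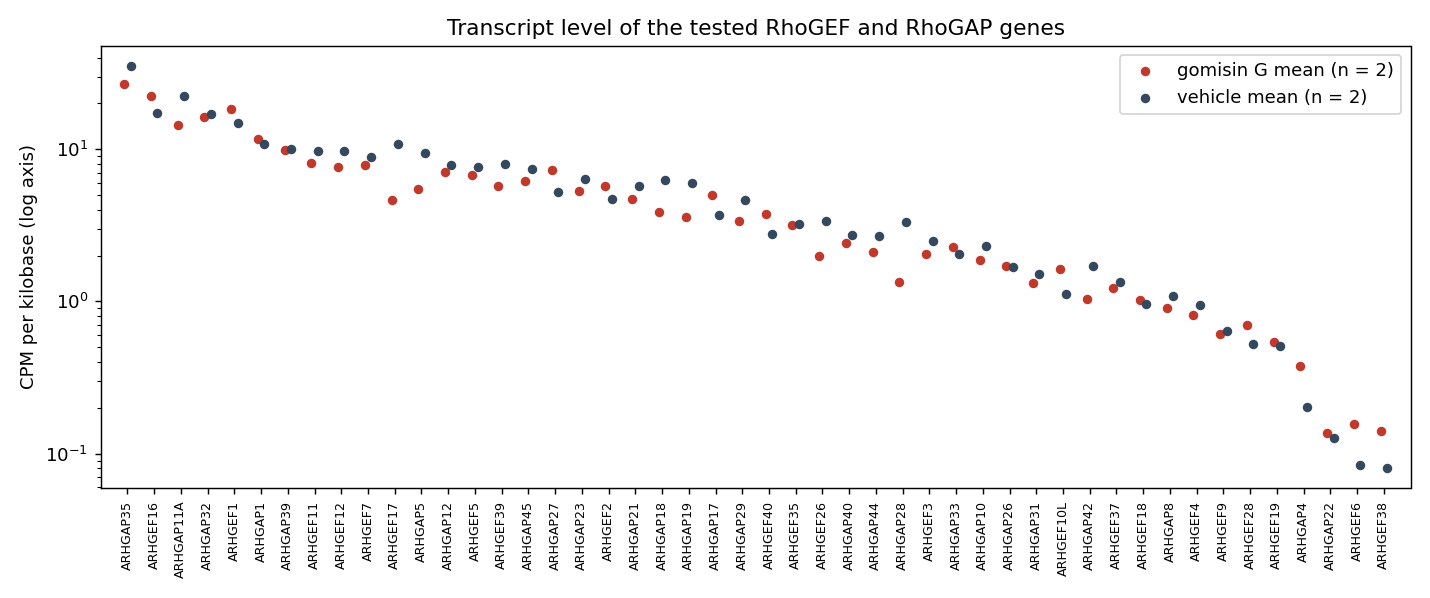
Transcript level of the 48 tested members on a log axis, as CPM per kilobase of exon, with the gomisin G mean and the vehicle mean (n = 2 libraries each) side by side and genes ordered by the mean of all 4 libraries. Levels run from 31.1 for ARHGAP35 to 0.110 for ARHGEF38, and ARHGEF17 shows a wide gap, at 4.64 with gomisin G against 10.7 with vehicle.

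Summed over all 26 ARHGEF genes the level was 96.7 and 113.5 CPM per kilobase in the gomisin G libraries, against 107.1 and 112.4 in the vehicle libraries, and the groups overlapped. Summed over all 36 ARHGAP genes it was 126.5 and 167.9 CPM per kilobase in the gomisin G libraries, against 174.6 and 181.5 in the vehicle libraries. Both gomisin G sums of the ARHGAP genes lay below both vehicle sums, but gomisin G replicate 2 was close to the vehicle pair and replicate 1 far below it. This separation depends on 1 abundant gene. ARHGAP11A had means of 14.5 CPM per kilobase with gomisin G and 22.5 with vehicle. Its gap between gomisin G replicate 2 and vehicle replicate 1 is wider than that of the sums, so without ARHGAP11A the groups would overlap. The sums are descriptions and were not tested.

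Of the 48 tested members 2 fell with gomisin G and 0 rose, by edgeR's quasi-likelihood test with Benjamini-Hochberg adjustment over all 15721 tested genes and a threshold of 0.05 (such genes are called). The 2 were ARHGEF17, a GEF for RhoA, and ARHGAP28, a GAP for RhoA. They are 4.17% of the tested members. In RNA from whole cultures, fewer cells of a kind and less RNA per cell cannot be told apart. Over all tested genes 287 (1.83%) were called, 142 (0.903%) fell and 145 (0.922%) rose, so a difference of 1 or 2 genes sets the share among the members. At an unadjusted p below 0.05 the share was 12 of 48 (25%), with 8 lower and 4 higher, against 20.6% of all tested genes, 9.62% lower and 10.9% higher. Besides the called pair these were ARHGEF26, ARHGEF39, ARHGAP11A, ARHGAP18, ARHGAP19 and ARHGAP42, lower, and ARHGEF10L, ARHGEF16, ARHGAP17 and ARHGAP27, higher. The groups did not overlap for 26 of 48 members (54.2%), with gomisin G lower in 14 and higher in 12. The 12 include ARHGEF6 and ARHGEF38, which passed the count filter only through the gomisin G libraries. The groups did not overlap for 54.2% of all tested genes either, with gomisin G lower in 27.3% and higher in 27%, so the members did not stand out by this measure. DESeq2 called 4 members and 883 of all tested genes (5.62%), adding ARHGAP11A and ARHGAP19, both lower, and limma voom called the same 2 members and 264 genes (1.68%). Single libraries moved the count. Leaving out gomisin G replicate 1 gave 15 members and 2833 genes (17.1%), and leaving out gomisin G replicate 2 gave 23 members and 6322 genes (38.6%). Those fits take their spread from the vehicle pair, and the lone gomisin G library is assumed to vary like it. Leaving out vehicle replicate 1 gave 2 members and 160 genes (0.96%), and leaving out vehicle replicate 2 gave 1 member and 135 genes (0.813%), with the spread taken from the gomisin G pair.

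ARHGEF17, also known as TEM4 or p164-RhoGEF, binds actin and is found in published lists of YAP target genes. It lies on chromosome 11 at 73308289 to 73369388 (GRCh38, plus strand). Its level was 35.9 and 56.0 CPM in the gomisin G libraries, against 101.4 and 111.4 CPM in the vehicle libraries, with means of 45.9 ± 14.2 and 106.4 ± 7.1 CPM (SD, n = 2 each). Both gomisin G libraries lay well below both vehicle libraries, and replicate 1 was the lower of the pair. The log2 change was -1.21 (SE 0.22, edgeR adjusted p = 0.0418). Without vehicle replicate 2 the call was lost, with a log2 change of -1.14 and an adjusted p of 0.0719. With gomisin G replicate 1 left out the change was -0.93, and with replicate 2 left out it was -1.57. An antisense gene, AP002761.3, overlaps 9.7% of its exon bases and had 24 and 15 counts with gomisin G and 20 and 18 with vehicle, against 519 and 887, and 1470 and 1656 counts of ARHGEF17. ARHGEF17 has no entry in the promoter table used.

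ARHGAP28, a RhoA GAP, lies on chromosome 18 at 6729718 to 6915716 (GRCh38, plus strand), and its promoter stretch is printed above. It had 13.5 and 18.6 CPM in the gomisin G libraries, against 41.7 and 38.0 CPM in the vehicle libraries, with means of 16.01 ± 3.6 and 39.8 ± 2.6 CPM (SD, n = 2 each). Again both gomisin G libraries lay below both vehicle libraries. The log2 change was -1.31 (SE 0.20, edgeR adjusted p = 0.0280), and the gene kept its call under all 14 alternatives run. Only 1.5% of the 50-base words of its longest transcript occur in another gene.

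**Figure D2:**
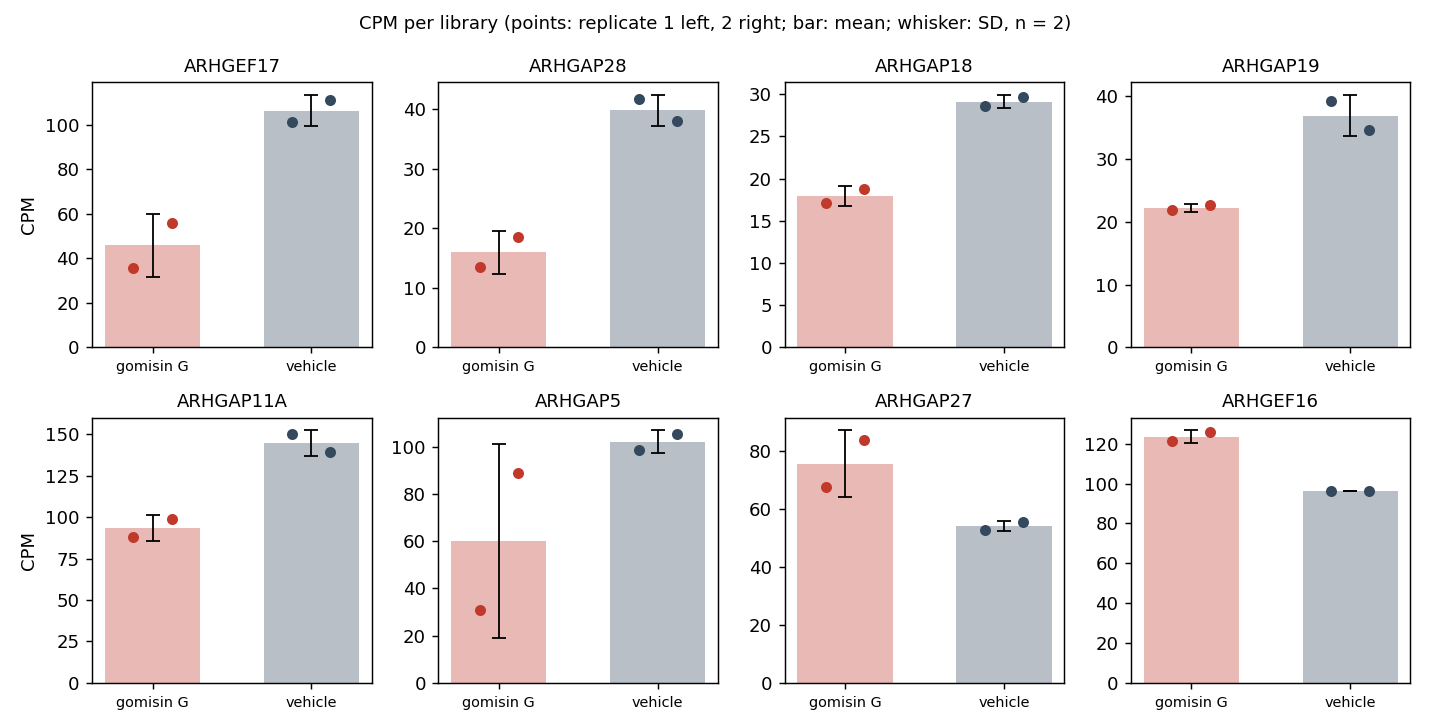
CPM of 8 members in each library, gomisin G left and vehicle right in every panel, with bars for the mean of 2 libraries, whiskers for the SD and points for replicates 1 and 2. ARHGEF17 and ARHGAP28, the called members, show the widest separation as a ratio of the means, though not in CPM. ARHGAP5 has 30.9 CPM in gomisin G replicate 1 and 89.1 CPM in replicate 2, and ARHGAP27 and ARHGEF16 lie higher with gomisin G.

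Among the GEFs for RhoA with an RGS domain, which couple G12 and G13 proteins to RhoA, 0 of 3 were called. ARHGEF1 (p115-RhoGEF) had 156.8 and 161.5 CPM with gomisin G, against 130.6 and 126.4 CPM with vehicle, a log2 change of 0.31 (SE 0.15, edgeR adjusted p = 0.285). ARHGEF11 (PDZ-RhoGEF) had 58.4 and 87.7 CPM with gomisin G, against 79.1 and 94.3 CPM with vehicle. ARHGEF12 (LARG), the longest member at 24404 exon bases, had 136.1 and 236.8 CPM with gomisin G, against 222.3 and 255.2 CPM with vehicle. The groups were apart for ARHGEF1 and overlapped for the other two, whose log2 changes were -0.25 and -0.36 (edgeR adjusted p = 0.548 and 0.453). In both of these gomisin G replicate 1 lay below the vehicle pair and replicate 2 within it.

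Of the other GEFs for RhoA, 9 of 11 were tested and only ARHGEF17 was called. Of the 9, 6 had a positive log2 change, against 7965 of all 15721 tested genes. The 6 include ARHGEF18 (0.10), whose counts cannot be read as its level, and ARHGEF19 (0.10), with 18 to 38 counts a library. ARHGEF2, or GEF-H1, is held on microtubules and acts on RhoA when they come apart. It had 47.3 and 58.1 CPM with gomisin G, against 45.3 and 40.3 CPM with vehicle (log2 change 0.30, SE 0.18, edgeR adjusted p = 0.370). ARHGEF10L had 11.7 and 13.95 CPM with gomisin G, against 8.07 and 9.35 CPM with vehicle (log2 change 0.56, SE 0.21, adjusted p = 0.196). ARHGEF40, also called Solo, binds keratin filaments and had a log2 change of 0.44 (adjusted p = 0.283). ARHGEF28, a GEF at focal adhesions, had one of 0.43 (adjusted p = 0.352). In these 4 genes both gomisin G libraries lay above both vehicle libraries, and none passed the test. Gomisin G was higher without overlap in 27% of all tested genes. In the other tested genes of this list the groups overlapped or, for ARHGEF17, gomisin G was lower. ARHGEF5 had 35.2 and 43.6 CPM with gomisin G, against 42.0 and 47.3 CPM with vehicle. Its copy ARHGEF35 had 8.84 and 6.50 CPM with gomisin G, against 8.35 and 7.34 CPM with vehicle, and neither was called. These levels are uncertain, since 76.3% of the 50-base words of ARHGEF5 and 56.7% of those of ARHGEF35 occur in another gene, among them each other and the pseudogene ARHGEF34P.

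The GEFs for RhoG lay in opposite directions. ARHGEF16 had 121.3 and 125.8 CPM with gomisin G, against 96.2 and 96.1 CPM with vehicle (log2 change 0.36, SE 0.15, edgeR adjusted p = 0.224). ARHGEF26, or SGEF, had 8.84 and 12.9 CPM with gomisin G, against 19.0 and 18.1 CPM with vehicle (log2 change -0.77, SE 0.23, adjusted p = 0.123). The libraries of each gene did not overlap between the groups, and neither gene passed the test. The difference between these 2 genes was not tested.

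The 4 GEFs for Rac and Cdc42 gave 0 calls. ARHGEF7, or beta-PIX, which binds PAK kinases, had 88.8 and 96.6 CPM with gomisin G, against 104.4 and 105.2 CPM with vehicle (log2 change -0.18, edgeR adjusted p = 0.532), and its sign turned to 0.06 with the length trend removed. ARHGEF6, or alpha-PIX, was scarce, with 11 and 20 counts with gomisin G and 7 and 9 with vehicle. ARHGEF39 is not among these 4 genes. It had 38.5 and 36.1 CPM with gomisin G, against 49.4 and 53.7 CPM with vehicle, a log2 change of -0.47 (SE 0.16, adjusted p = 0.162). Antisense genes, CCDC107 and CA9, overlap 27.0% of the exon bases of ARHGEF39, and CCDC107 had 160 and 112 counts with gomisin G, against 88 and 69 with vehicle. Whether counting used strand is not stated, and reads of these genes cannot be told apart.

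Of the GAPs, 26 were tested and ARHGAP28 alone was called. A negative log2 change was seen in 19 and a positive one in 7, against 7739 and 7965 of all tested genes. The 2 tested GAPs of cell division had lower counts with gomisin G. ARHGAP19, a RhoA GAP of mitosis, had 21.8 and 22.7 CPM with gomisin G, against 39.3 and 34.6 CPM with vehicle (log2 change -0.73, SE 0.17, edgeR adjusted p = 0.0723, DESeq2 adjusted p = 0.0320). ARHGAP11A, a RhoA GAP whose transcript follows the cell cycle, had 87.9 and 98.9 CPM with gomisin G, against 150.1 and 139.1 CPM with vehicle (log2 change -0.63, SE 0.16, edgeR adjusted p = 0.0813, DESeq2 adjusted p = 0.0276). In both genes each gomisin G library lay below each vehicle library. ARHGAP11A shares 26.3% of its 50-base words with other genes, most of all with AC091057.6 (14.7%). AC091057.6 had 4 and 16 counts with gomisin G, against 37 and 30 with vehicle. ARHGAP11A had 1273 and 1566 counts with gomisin G, against 2176 and 2067 with vehicle. The human-specific copy ARHGAP11B had 3 and 2 counts with gomisin G and 7 and 0 with vehicle, and 57.8% of its words occur elsewhere. ARHGAP19 shares 25.1% of its words with the read-through gene ARHGAP19-SLIT1, which had 0 counts. The handling of reads with several matches is not stated, so that 0 does not show how many reads were shared.

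Of the members tied to YAP besides ARHGEF17, the RhoA GAP gene ARHGAP18 had 17.1 and 18.8 CPM with gomisin G, against 28.6 and 29.7 CPM with vehicle (log2 change -0.70, SE 0.17, edgeR adjusted p = 0.0805). Its libraries were tight within each group and well apart between them. ARHGAP29, a RhoA GAP downstream of Rap1, had 42.6 and 61.7 CPM with gomisin G, against 67.9 and 76.0 CPM with vehicle (log2 change -0.46, SE 0.21, adjusted p = 0.254). Replicate 2 of gomisin G lay close to the vehicle pair. The 3 members tied to YAP were listed with the results of these libraries known, so their direction is no independent evidence.

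The p190 GAPs, which end RhoA signalling at sites of adhesion, lay apart from vehicle mainly in 1 library, and neither passed the test. ARHGAP5 (p190B) had 30.9 and 89.1 CPM with gomisin G, against 98.7 and 105.6 CPM with vehicle (log2 change -0.77, SE 0.40, edgeR adjusted p = 0.317). ARHGAP35 (p190A) had 233.5 and 372.5 CPM with gomisin G, against 365.5 and 426.2 CPM with vehicle (log2 change -0.39, SE 0.24, adjusted p = 0.388). ARHGAP5 had the widest replicate gap of all tested members. Its gomisin G replicate 2 stood 2.88 times as high as replicate 1, whereas the vehicle replicates had a ratio of 1.07. Its log2 change was -0.20 with gomisin G replicate 1 left out and -1.72 with replicate 2 left out. Of its 50-base words, 41.0% occur in other genes, and the ones sharing most, AL161665.1 and AC006971.1, had at most 1 count in any library. Strand and the handling of reads with several matches are not stated, so such low counts do not show how many reads were shared.

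The 12 GAPs of junctions and the cell cortex were all tested, with 0 called, 8 negative and 4 positive log2 changes, and 2 in each direction at an unadjusted p below 0.05. ARHGAP27, a GAP for Rac and Cdc42 at sites of endocytosis, had 67.6 and 83.9 CPM with gomisin G, against 53.0 and 55.5 CPM with vehicle (log2 change 0.48, SE 0.17, edgeR adjusted p = 0.174). ARHGAP17, or RICH1, a GAP of tight junctions that binds angiomotin, had 49.3 and 49.8 CPM with gomisin G, against 37.2 and 36 CPM with vehicle (log2 change 0.44, SE 0.16, adjusted p = 0.174). Both lay above vehicle in every library. ARHGAP42, or GRAF3, a RhoA GAP, had 8.43 and 10.2 CPM with gomisin G, against 14.7 and 16.01 CPM with vehicle (log2 change -0.72, SE 0.21, adjusted p = 0.110). ARHGAP32 had 155.5 and 264.7 CPM with gomisin G, against 199.8 and 240.6 CPM with vehicle, so that its gomisin G libraries lay on either side of the vehicle pair. ARHGAP1, a broad GAP that acts on Cdc42 and RhoA, had 70.0 and 74.0 CPM with gomisin G, against 66.2 and 66.8 CPM with vehicle (log2 change 0.11, SE 0.15, adjusted p = 0.703).

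Of the remaining named GAPs, ARHGAP39, a GAP for Rac and Cdc42, had a log2 change of -0.03 (edgeR adjusted p = 0.937). ARHGAP4, known from blood cells, had 36 and 27 counts with gomisin G, against 18 and 15 with vehicle, a log2 change of 0.89 with a wide error (SE 0.41, adjusted p = 0.268). The GAPs for Rac and Cdc42 gave 0 calls among 5 tested of 6 listed, and those known from blood cells 0 among 2 tested of 6.

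**Figure D3:**
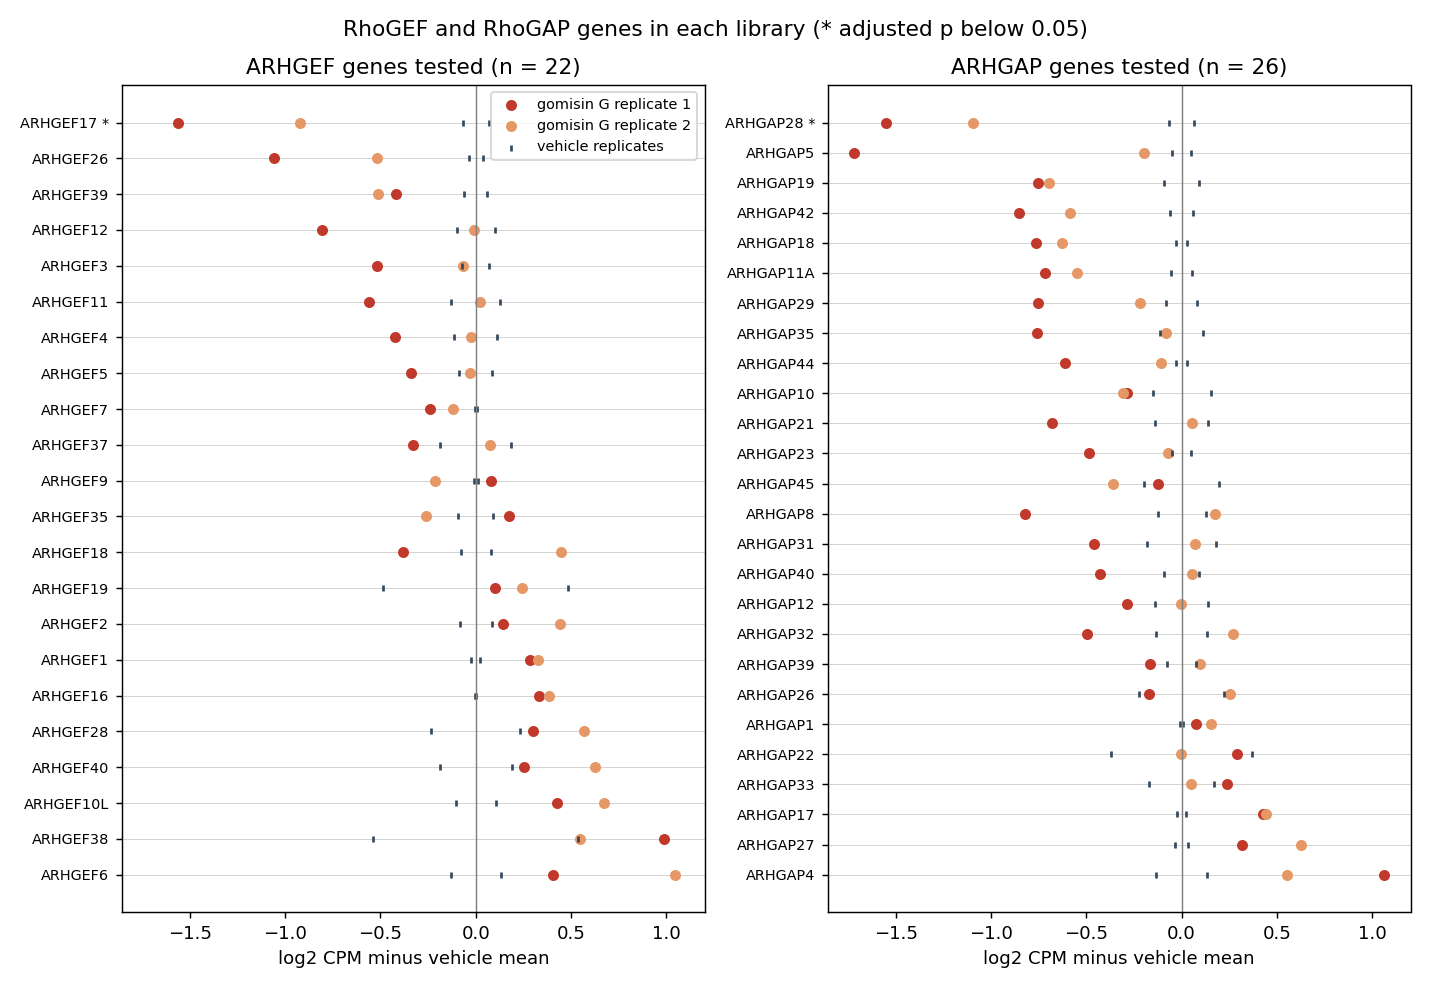
Log2 CPM minus the vehicle mean for the 22 tested ARHGEF genes (left) and the 26 tested ARHGAP genes (right), with gomisin G replicate 1 and replicate 2 as filled points and the vehicle replicates as ticks, ordered by the fitted log2 change. ARHGEF17 and ARHGAP28, starred, are the 2 members with an adjusted p below 0.05, and in 39 of 48 genes replicate 1 of gomisin G lies below replicate 2.

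The median log2 change of the tested members was -0.17, with 31 negative and 17 positive values. The 17 include ARHGAP22, ARHGEF6 and ARHGEF38, which passed the count filter only through the gomisin G libraries. Over all tested genes the median was 0.01, with 7739 negative and 7965 positive values. It was -0.05 for the ARHGEF genes, with 12 negative and 10 positive values, and -0.25 for the ARHGAP genes, with 19 negative and 7 positive values. The medians differed between the gomisin G libraries. Against the vehicle mean, gomisin G replicate 1 had a median over members of -0.34 and replicate 2 one of 0.01. The ARHGEF genes stood at -0.08 in replicate 1 and 0.05 in replicate 2, and the ARHGAP genes at -0.47 in replicate 1 and -0.002 in replicate 2. The fitted median over members was 0.002 with gomisin G replicate 1 left out and -0.35 with replicate 2 left out. Replicate 2 of gomisin G exceeded replicate 1 in 39 of 48 members (81.2%), against 51.6% of all tested genes. Between the gomisin G libraries the SD of log2 CPM had a median over members of 0.27, against 0.13 between the vehicle libraries, and it was the wider of the 2 in 35 of 48 members.

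Many members are long, and gene length moved with this difference between libraries. The median exon length was 7975 bases for tested members and 4423 bases for all tested genes. When all tested genes were sorted by length into 5 classes of equal size, 25 of 48 members (52.1%) were in the longest class, 16 (33.3%) in the next, 5 in the middle, 2 in the second shortest and 0 in the shortest. In gomisin G replicate 1 the median of all tested genes ran from 0.34 in the shortest class through 0.23, 0.02 and -0.14 to -0.36 in the longest. In replicate 2 it ran from 0.10 through 0.05, -0.001 and -0.03 to -0.04. The members of the longest class had medians of -0.46 in replicate 1 and -0.01 in replicate 2, and those of the next class -0.31 and -0.002. In the longest class replicate 2 exceeded replicate 1 in 23 of 25 members (92%), against 79.3% of all genes of that class. Across the 48 members the difference of replicate 1 minus replicate 2 had a Pearson r of -0.32 and a Spearman coefficient of -0.30 with log2 length, and across all 15721 genes -0.23 and -0.38. These are correlations across genes measured in the same 2 libraries. The vehicle replicates showed a weaker trend the same way, with r of -0.17 and a Spearman coefficient of -0.28 across the members for replicate 1 minus replicate 2, and -0.13 and -0.21 across all genes. In the longest class vehicle replicate 2 exceeded replicate 1 in 18 of 25 members and in 2104 of 3144 genes. These values carry no test, and the part of length in the members' changes was not tested beyond the fit below.

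**Figure D4:**
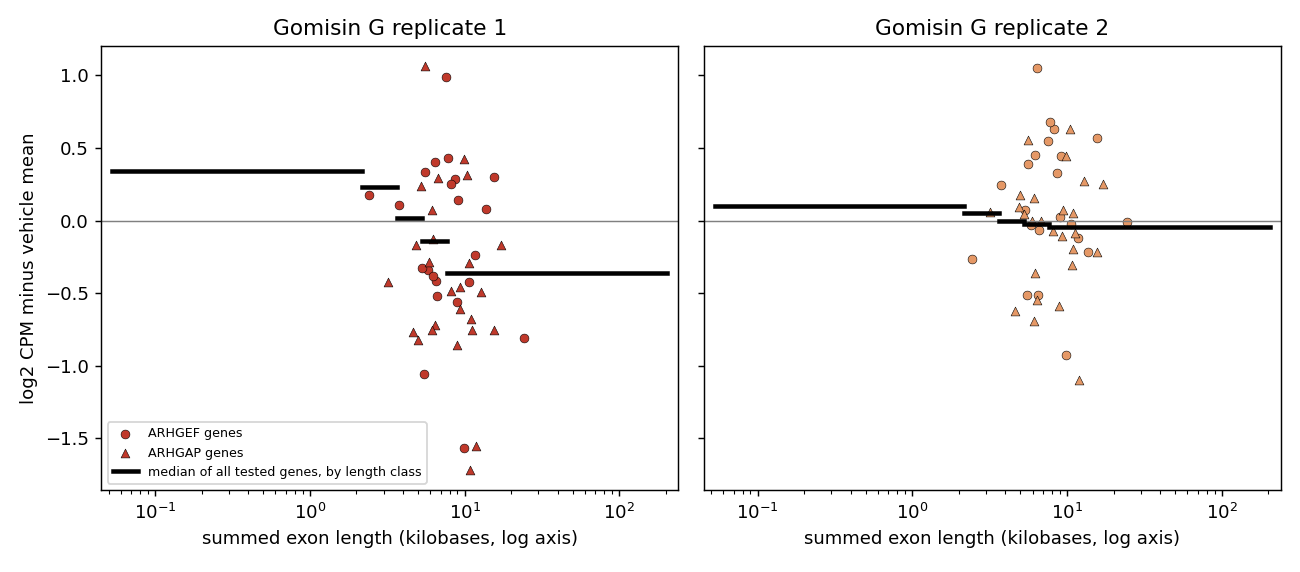
Log2 CPM minus the vehicle mean against summed exon length in kilobases (log axis) for the tested ARHGEF genes (circles) and ARHGAP genes (triangles), in gomisin G replicate 1 (left) and replicate 2 (right). Black lines give the median of all tested genes in each of 5 length classes, which reaches -0.36 in the longest class in replicate 1 and -0.04 in replicate 2.

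Removing a smooth trend with length from every library kept both calls and added 3 among the members. With it removed, 5 of 48 members (10.4%) and 791 of all tested genes (5.03%) were called. ARHGEF17 had a log2 change of -1.04 (edgeR adjusted p = 0.0163) and ARHGAP28 one of -1.09 (adjusted p = 0.0141). ARHGAP18 (-0.69, adjusted p = 0.0435) and ARHGAP19 (-0.65, adjusted p = 0.0496) fell by this fit, and ARHGAP27 rose (0.68, adjusted p = 0.0280). The median of the members was then -0.06, with 28 of 48 negative, against 7471 negative of all 15721 tested genes. By library, gomisin G replicate 1 then had a median over members of -0.15 and replicate 2 one of 0.06, against -0.34 and 0.01 before. Over all tested genes the medians were then 0.03 in replicate 1 and 0.01 in replicate 2. The trend was fitted in each library, so a change with treatment that runs with length would be removed with it. The ARHGAP genes then had a median of -0.21 in replicate 1 and 0.02 in replicate 2, against -0.47 and -0.002 before.

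Of the GTPase genes looked up singly beside the members, RHOB and RHOC rose and RND3 fell. RHOB, which encodes a short-lived GTPase of endosomes, had 885.9 and 751.8 CPM with gomisin G, against 133.0 and 129.2 CPM with vehicle (log2 change 2.64, SE 0.19, edgeR adjusted p = 0.00163). RHOC had 205.1 and 148.5 CPM with gomisin G, against 72.9 and 61.8 CPM with vehicle (log2 change 1.39, SE 0.20, adjusted p = 0.0240). Its call was lost without vehicle replicate 2 (adjusted p = 0.0694). RND3, which encodes a GTPase that stays bound to GTP and works through the p190 GAPs, had 10.2 and 9.47 CPM with gomisin G, against 25.9 and 25.8 CPM with vehicle (log2 change -1.39, SE 0.18, adjusted p = 0.0184). The groups were far apart in all 3 genes. RHOA had 1152 and 971.7 CPM with gomisin G, against 658.0 and 644.2 CPM with vehicle (log2 change 0.71, SE 0.19, adjusted p = 0.0929, DESeq2 adjusted p = 0.00748). RAC1 had a log2 change of 0.12 (adjusted p = 0.724). CDC42 was not tested, and its low counts cannot be read as its level, since 90.7% of its 50-base words occur in other genes. ARHGDIA, whose product holds such GTPases in the cytosol, had 183.2 and 180.5 CPM with gomisin G, against 187.8 and 184.2 CPM with vehicle (log2 change -0.03, edgeR adjusted p = 0.925).

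Regulators of the same kind under other names included 4 called genes, all lower. Of 40 other GEFs with a DH domain 33 were tested, 1 fell (3.03%, against 0.903% of all tested genes) and 0 rose by edgeR, with 23 negative values and a median log2 change of -0.25. At an unadjusted p below 0.05 there were 5 lower and 2 higher (21.2%, against 20.6% of all tested genes), and DESeq2 called 3 (9.09%, against 5.62%). Limma voom called 1 of these GEFs (3.03%, against 1.68%). The called gene was FGD3, a GEF for Cdc42, with 2.69 and 2.78 CPM with gomisin G, against 13.9 and 12.04 CPM with vehicle (log2 change -2.24, SE 0.24, edgeR adjusted p = 0.00903). Of 14 DOCK and ELMO genes, which activate Rac and Cdc42 through another fold, 12 were tested and 0 called by edgeR, with a median of -0.17. Among these 12, 4 were lower and 2 higher at an unadjusted p below 0.05 (50%, against 20.6%). DESeq2 called 2 of them (16.7%, against 5.62%) and limma voom 1 (8.33%, against 1.68%). Of 24 other RhoGAPs 21 were tested, 3 fell (14.3%, against 0.903%) and 0 rose by edgeR, with 18 negative values and a median of -0.37. At an unadjusted p below 0.05 there were 6 lower and 0 higher (28.6% lower, against 9.62%), and DESeq2 called 4 (19%, against 5.62%). Limma voom called 1 of these RhoGAPs (4.76%, against 1.68%). The 3 that fell were SYDE1 (-1.45, adjusted p = 0.0328), SYDE2 (-1.56, adjusted p = 0.0473) and the Slit-Robo GAP gene SRGAP1 (-1.23, adjusted p = 0.0487). Only SYDE1 kept its call with limma voom (adjusted p = 0.0410), where SYDE2 had 0.0556 and SRGAP1 0.0555. Leaving out vehicle replicate 1 raised the adjusted p to 0.0959 for SYDE1, 0.165 for SYDE2 and 0.110 for SRGAP1, and leaving out vehicle replicate 2 raised it to 0.0509 for SYDE1 and 0.264 for SRGAP1. SRGAP1, with 26641 exon bases, also missed the threshold with the length trend removed (-0.88, adjusted p = 0.0675).

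Downstream, 0 of 23 tested Rac and Cdc42 effectors (26 listed) were called by edgeR, with a median log2 change of -0.23. At an unadjusted p below 0.05 there were 4 lower and 4 higher (34.8%, against 20.6% of all tested genes). DESeq2 called 3 (13%, against 5.62%) and limma voom 0. The median over all tested genes was 0.01, and this list and the lists of related regulators above, like the members, hold many long genes.

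**Figure D5:**
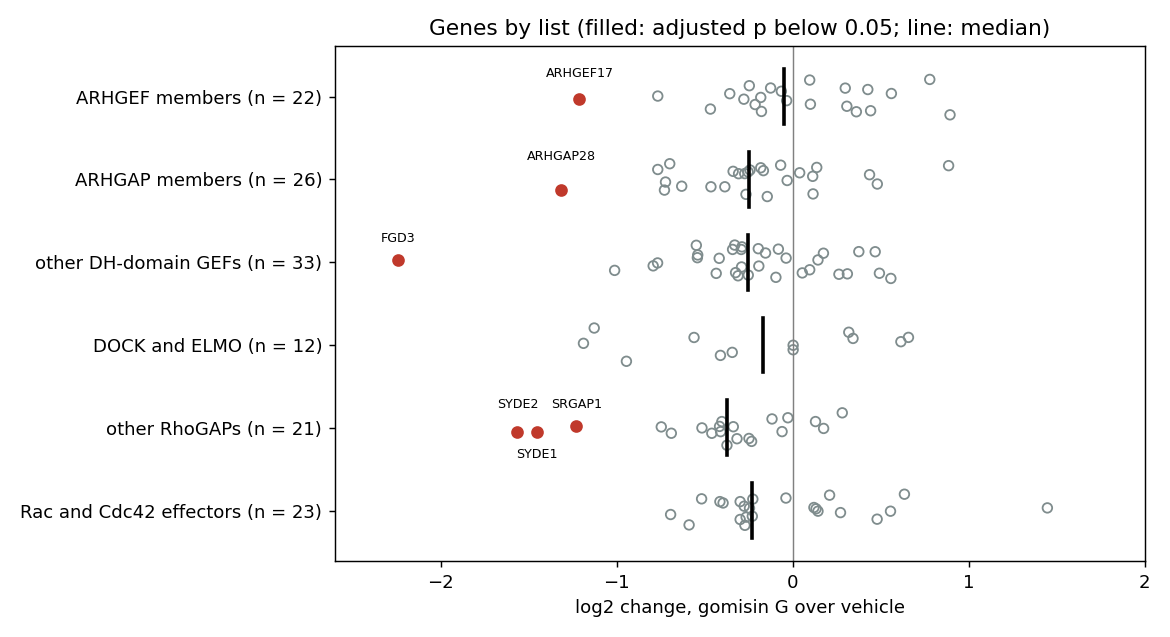
Log2 change, gomisin G over vehicle, of each tested gene in the ARHGEF and ARHGAP families and in 4 lists of related genes, with a black line at the median of each list and filled points for an adjusted p below 0.05. FGD3 at -2.24 lies furthest out, and the 2 called members, ARHGEF17 and ARHGAP28, lie at -1.21 and -1.31.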

How the data were processed

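RNA of SW1990 cells was depleted of ribosomal RNA and sequenced, per the labels' protocols. The authors deposited raw gene counts; the submitters' processing notes name fastp, HISAT2, featureCounts and hg38. Versions, strand and the handling of reads with several matches are not given in the sources used here. Coordinates and summed exon lengths equal those of GENCODE 29 for all 58735 genes. Counts were fitted with edgeR 4.0.16 in R 4.3.3: default expression filter (15721 genes), TMM factors, robust quasi-likelihood F test on treatment (2 residual degrees of freedom), Benjamini-Hochberg over all tested genes, threshold 0.05. The fit was also run on simulated counts with the same spread in both groups and no length trend. That run does not cover the wider gomisin G spread or the length trend of these data. Log2 values per library use a prior count of 2. The length trend was removed as loess offsets (span 0.3). Alternatives were DESeq2 1.42.0, limma 3.58.1 voom, other scalings and filters, a replicate block and leaving out each library. Shared 50-base words were counted over GENCODE transcripts. Named genes are the called members, the 10 ARHGEF and 10 ARHGAP genes of smallest p, the 5 most abundant of each per kilobase, a fixed set of GTPase and YAP-linked genes, and called genes of the lists. Some listed items are not reported here. Members and lists were chosen with earlier results of these data known.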

Additional observations from a re-analysis of the deposited data

How the results depend on the processing

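The 14 alternatives changed counts more than directions. Over all tested genes 287 were called, and 883 with DESeq2, 791 with the length trend removed, 2885 with a replicate block, 2767 with the block and the length trend removed, and 135 to 6322 when a library was left out. Members called were 2, and 4 with DESeq2, 5 with the length trend removed, 10 with the block, 15 with the block and the length trend removed, and 1 to 23 when a library was left out. As shares, DESeq2 called 8.33% of the members against 5.62% of all tested genes. With the length trend removed it was 10.4% against 5.03%. The block gave 20.8% against 18.4%, and the block with the length trend removed gave 31.2% against 17.6%. The replicate numbers give only 2 pairs with no stated link (correlation of same-numbered deviations 0.215), so the block is a description. Other scalings, filters, voom and the legacy fit kept 2 members. Of the log2 changes of named genes under the alternatives, 439 kept direction and side of the threshold, 60 passed it anew, 16 lost it and 14 changed sign. The sign changes were all of genes not called. With the length trend removed ARHGEF7 had 0.064 and ARHGAP32 0.156, and with the block too 0.061 and 0.144. Upper-quartile factors gave 0.026 for ARHGAP39 and 0.026 for ARHGEF35. With a library left out, the lowest and highest values were -0.568 and 0.014 for ARHGEF11, -0.501 and 0.263 for ARHGAP32, -0.168 and 0.092 for ARHGAP39, -0.272 and 0.175 for ARHGEF35, and -0.027 and 0.251 for RAC1. The cause was not tested. With 2 libraries a group, a member that misses the threshold is not shown to be unaffected.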

Other observations

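Among noncoding namesakes of the members, ARHGAP5-AS1 lies on chromosome 14 at 32074946 to 32076793 (GRCh38, minus strand), overlapping the start of ARHGAP5. It had 71 and 63 counts with gomisin G, against 24 and 30 with vehicle, a log2 change of 1.26 (SE 0.32, edgeR adjusted p = 0.0815), which did not pass the test. ARHGAP5 itself had 448 and 1411 counts with gomisin G, against 1431 and 1570 with vehicle. The pseudogene ARHGEF34P, which shares sequence with ARHGEF5, had 124 and 234 counts with gomisin G, against 153 and 219 with vehicle (adjusted p = 0.860). ARHGAP11A overlaps the antisense gene AC123768.5 over part of its exons, and that gene had 6 and 7 counts with gomisin G, against 1 and 1 with vehicle.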
